A study of Homo sapiens with 4 samples.

Results

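The genes described here are SEMA7A and 9 genes of the same guidance system: the ligands SEMA3A, SEMA3C, SEMA4B and SEMA4C, and the receptors PLXNC1, PLXNA1, PLXNB2, NRP1 and NRP2. They are 10 of the 60721 genes in the deposited count table. The set was picked on the measured rise of SEMA7A after TLN1 knockdown, so the difference of SEMA7A between the groups is given as a description with no test. The other 9 genes were named with it as family members and receptors, with earlier results of these data known. All 10 have a row in the authors' deposited table of log2 CPM (CPM is the count scaled to library size), and all 10 passed the filter on low counts.

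Hs578T is an established line from a human breast carcinoma, and the libraries were made from its polyadenylated RNA. Every culture was co-transfected with GFP. The SCR group received a non-targeting control siRNA and the siTLN1 group an siRNA against TLN1, each at 1.6 µM, with RNA taken 48 h later and 2 biological replicates per group. TLN1 encodes talin-1, which couples integrins to actin. The labels name a single siTLN1 reagent and give no sequence for it, so effects of TLN1 loss and effects particular to that reagent cannot be told apart.

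Semaphorins are secreted or membrane-bound proteins, first known for steering growing axons, and they also act on adhesion, migration and vessel growth. Their main receptors are the plexins, whose cytoplasmic part acts on small GTPases and, through them, on the cytoskeleton and on adhesion. Most secreted class 3 semaphorins need a neuropilin, NRP1 or NRP2, to hold them to a class A plexin. SEMA7A is the semaphorin with a lipid (GPI) anchor in the membrane. It binds plexin C1 (PLXNC1), and it also binds integrins that hold the β subunit ITGB1, such as the one formed with ITGA1, through an Arg-Gly-Asp tripeptide.

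That tripeptide is shown because it ties SEMA7A to integrins, the receptors that talin-1 serves. In the GENCODE 29 transcript with the longest coding sequence, the codons of Arg-Gly-Asp cover residues 267 to 269 of 666 in SEMA7A. The 33 bases around them lie at chr15:74415968-74416589 (GRCh38, minus strand), on both sides of an intron. Of the 17 semaphorins tested, 3 others hold the same tripeptide: SEMA3C at residues 726 to 728, SEMA4G at 581 to 583 and SEMA6A at 972 to 974. Those 3 matches are letters only, and whether integrins bind there was not tested. Coding sequences are given 5′ to 3′ with the codons of Arg-Gly-Asp in capitals.
SEMA7A: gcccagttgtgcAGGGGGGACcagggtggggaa
SEMA3C: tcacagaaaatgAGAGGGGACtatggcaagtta
SEMA4G: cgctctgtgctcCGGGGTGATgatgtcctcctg
SEMA6A: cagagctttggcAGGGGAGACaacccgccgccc
Among these 4 genes the codon chosen for arginine is AGG in SEMA7A and SEMA6A, AGA in SEMA3C and CGG in SEMA4G.

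Libraries held between 31854322 and 46353297 counts, of which 99.9% lay in the 16137 tested genes. The target went from a mean of 871 CPM in SCR to 48.3 CPM in siTLN1 (log2 fold change −4.17). The sample label says epithelial cells, but the epithelial markers CDH1, EPCAM and KRT19 stayed below 1 CPM in every library. Of the other epithelial markers, KRT8 was at 15.1 to 20.7 CPM and KRT18 at 104 to 131 CPM. The 4 mesenchymal markers (VIM, FN1, CDH2 and ZEB1) were at 109 CPM or more. Of the luminal breast markers, ESR1 averaged 0.111 CPM, PGR 0.00532 CPM and GATA3 11.4 CPM. Of the 9 blood, endothelial and neuronal markers, 7 averaged below 1 CPM, CD3E was at 0 in each library, PECAM1 averaged 3.60 CPM and SYT1 30.7 CPM. In these bulk samples fewer cells that make an RNA and less of it per cell cannot be told apart. With 2 libraries per group the smallest p of an exact two-sided permutation test is 0.333, so tests come from edgeR's fit across all genes.

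SEMA7A was at 73.5 and 92.2 CPM in SCR libraries a and b and at 202 and 195 CPM in siTLN1 libraries a and b. The groups did not overlap, and both siTLN1 libraries were at more than 2 times the higher SCR library. The means were 82.9 ± 13.2 CPM (SD, n = 2) and 199 ± 4.76 CPM (SD, n = 2). This is a log2 fold change of 1.26, or 2.40-fold. The counts behind it were 2337 and 3212 in SCR and 7350 and 9172 in siTLN1. The letters a and b stand for a number that recurs in 1 column of each group and whose meaning the file does not state. Within the a libraries the log2 difference was 1.46 and within the b libraries 1.08. SEMA7A (ENSG00000138623.10; GRCh38, chromosome 15, 74409289 to 74433958, minus strand) shares none of its 3800 exon bases with another annotated gene.

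**Figure D1:**
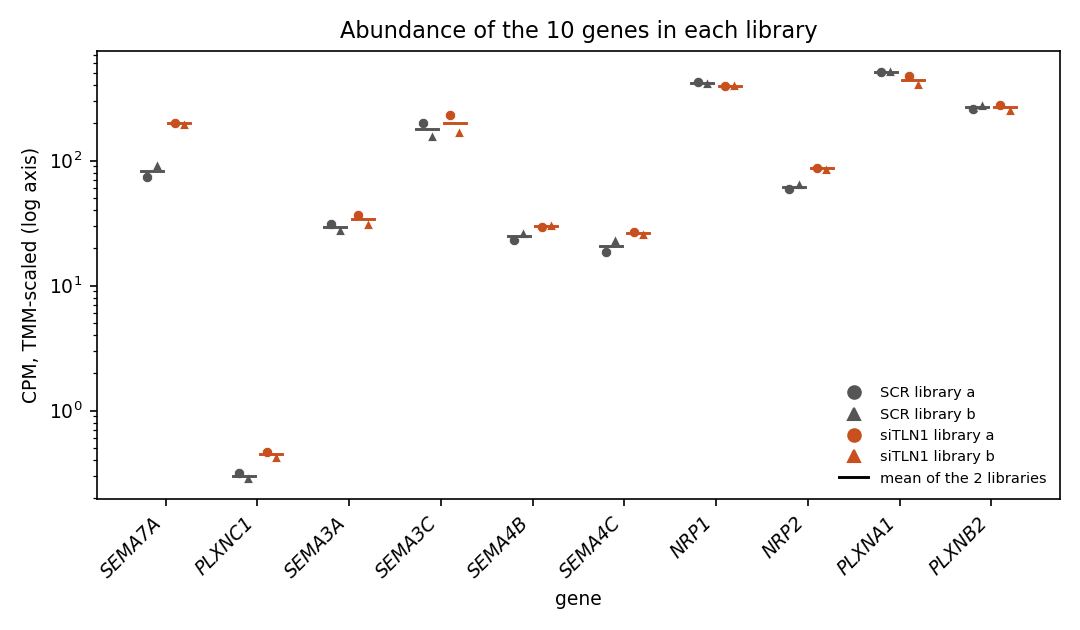
TMM-scaled CPM (log axis) of the 10 genes in each of the 4 libraries; circles and triangles are libraries a and b and bars are group means. SEMA7A moves from 82.9 to 199 CPM, PLXNC1 lies below 0.5 CPM in every library, and the other 8 genes move far less than SEMA7A.

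PLXNC1, the plexin that SEMA7A binds, was close to the lower limit of the measurement. It had 10 and 10 counts in SCR and 17 and 20 in siTLN1, or 0.315 and 0.287 CPM against 0.467 and 0.426 CPM. The siTLN1 libraries were the higher ones and the groups did not overlap. Its log2 fold change of 0.56 had a 95% interval from −0.38 to 1.49 (adjusted p = 0.536, quasi-likelihood test of edgeR, adjusted by Benjamini-Hochberg over all tested genes). A change of this size was not detectable at this depth. In addition, 9.88% of the exon bases of PLXNC1 overlap genes on the opposite strand, CEP83 among them, and the counting took no account of strand.

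The integrin genes of the other SEMA7A receptor were far more abundant per length than PLXNC1. ITGB1 stood at 258 and 224 CPM per kb of exon in SCR, ITGA1 at 2.34 and 1.85, and PLXNC1 at 0.0314 and 0.0286. ITGB1 was thus above 99.5% of tested genes on this scale, and PLXNC1 was above 0.552% of them. Neither integrin gene passed the test. The log2 fold change of ITGB1 was 0.15 (95% interval −0.088 to 0.38, adjusted p = 0.514) and that of ITGA1 was 0.025 (−0.25 to 0.30, adjusted p = 0.946). ITGB1 shares 6.67% of its exon bases with an opposite-strand gene and ITGA1 shares 8.06%, beside 5.77% shared with same-strand genes, so reads in those stretches cannot be assigned to 1 gene.

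Of the 9 genes besides SEMA7A, 1 passed the threshold of an adjusted p under 0.05 (11.1%), where 980 of all 16137 tested genes did (6.07%). That gene was NRP2, the neuropilin that pairs with class A plexins for SEMA3C and SEMA3F and also binds VEGF-C. NRP2 was at 59.1 and 64.7 CPM in SCR and at 87.9 and 85.4 CPM in siTLN1. Each siTLN1 library was above each SCR library, by more than the libraries of a group differed. The log2 fold change was 0.48 (SE 0.095, 95% interval 0.28 to 0.68, adjusted p = 0.00548, edgeR), or 1.398-fold. It was 0.57 within the a libraries and 0.40 within the b libraries. Without siTLN1 library a the value was 0.47 and no longer passed (adjusted p = 0.0736), and over the other fits to all 4 libraries without a replicate block the adjusted p ran from 0.000523 to 0.0114.

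NRP1, the other neuropilin and a receptor for SEMA3A and VEGF-A, was at 423 and 417 CPM in SCR and 393 and 400 CPM in siTLN1. The groups did not overlap but lay close together. Its log2 fold change was −0.083 (95% interval −0.28 to 0.11, adjusted p = 0.696, edgeR). NRP1 was more abundant than NRP2 on the length-scaled level in both groups, at 36.4 against 4.46 CPM per kb in SCR and 34.4 against 6.23 in siTLN1. The ratio of these means was therefore smaller in siTLN1.

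The ligand SEMA3C, a secreted semaphorin that acts through neuropilins and promotes migration in several carcinomas, was at 199 and 157 CPM in SCR and 232 and 170 CPM in siTLN1. SCR library a lay above siTLN1 library b, so the groups overlapped, and both a libraries were above both b libraries. The log2 difference was 0.22 within the a libraries and 0.11 within the b libraries. The fitted log2 fold change was 0.17 (95% interval −0.16 to 0.51, adjusted p = 0.591, edgeR), and it was −0.066 without siTLN1 library a.

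SEMA3A, the classical repellent of sensory axons that signals through NRP1 and class A plexins, was at 31.4 and 27.7 CPM in SCR and at 36.8 and 30.9 CPM in siTLN1. SCR library a lay above siTLN1 library b, so the groups overlapped. Its log2 fold change was 0.20 (95% interval −0.041 to 0.43, adjusted p = 0.358, edgeR).

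Both class 4 ligands of the set, which are membrane proteins recognised by class B plexins, had higher values in siTLN1 without passing the test. SEMA4B was at 23.2 and 26.4 CPM in SCR and 29.2 and 30.4 CPM in siTLN1. SEMA4C, a ligand of plexin B2, was at 18.6 and 23.2 CPM in SCR and 26.7 and 26.0 CPM in siTLN1. In neither gene did the groups overlap. The log2 fold changes were 0.27 for SEMA4B (95% interval 0.045 to 0.49, adjusted p = 0.158, edgeR) and 0.33 for SEMA4C (0.087 to 0.58, adjusted p = 0.108). Without SCR library b the value of SEMA4C was 0.50 and passed (adjusted p = 0.0108), and without SCR library a it was 0.18 (adjusted p = 0.512).

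PLXNA1, the class A plexin that works with NRP1, was at 508 and 521 CPM in SCR and 476 and 414 CPM in siTLN1. The siTLN1 libraries were the lower ones, and siTLN1 library b was the lowest. Its log2 fold change was −0.21 (95% interval −0.42 to 0.0012, adjusted p = 0.256, edgeR). PLXNB2, the receptor for SEMA4C, was at 262 and 277 CPM in SCR and 281 and 256 CPM in siTLN1. These groups overlapped fully, with a log2 fold change of −0.0057 (−0.21 to 0.19, adjusted p = 0.987), and without a filter on low counts the sign turned, at 0.0062.

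Across the set without SEMA7A, the 2 groups of libraries did not overlap in 6 of the 9 genes, while they did not overlap in 48.4% of all tested genes. Overlapping values were found in SEMA3A, SEMA3C and PLXNB2.

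**Figure D2:**
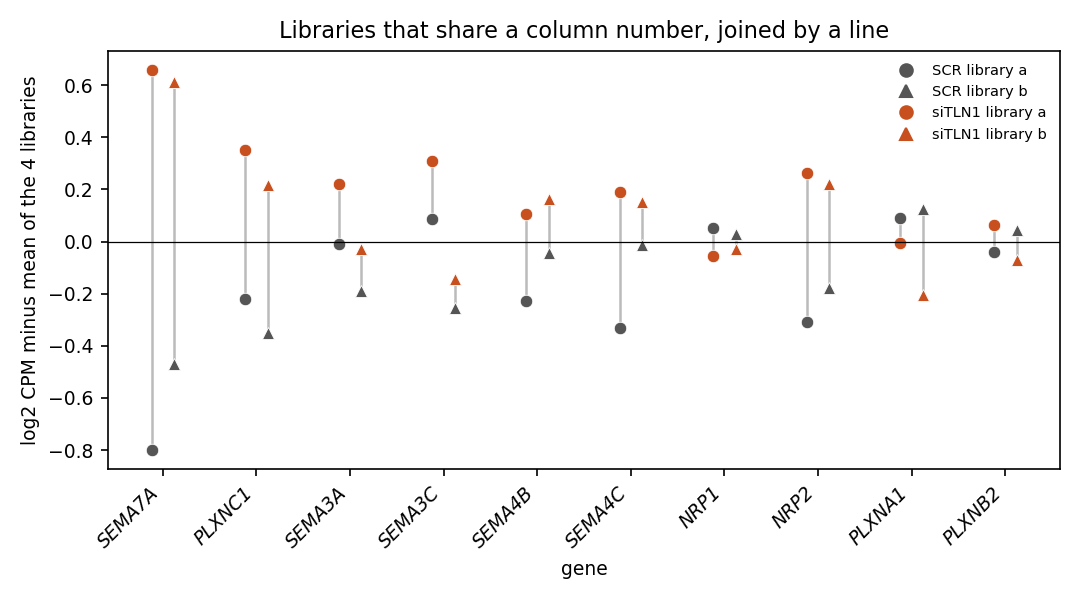
Log2 CPM of each gene minus its mean over the 4 libraries; circles are the a libraries, triangles the b libraries, and a line joins the SCR and siTLN1 libraries that share a column number. In SEMA7A both lines are long (1.46 and 1.08), in SEMA3C the a and b lines are short and set apart from each other, and in PLXNB2 they point in opposite directions.

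By length-scaled level in control cells, 3 receptors were the most abundant genes of the set, NRP2 was below SEMA3C and SEMA7A, and PLXNC1 was last. In SCR the order of mean CPM per kb was PLXNA1 (47.0), PLXNB2 (37.0), NRP1 (36.4), SEMA3C (29.2), SEMA7A (21.8), NRP2 (4.46), SEMA4B (3.53), SEMA4C (3.338), SEMA3A (3.19) and PLXNC1 (0.0300). Neighbours whose 2 SCR libraries overlapped, and so did not differ beyond their spread, were PLXNB2 with NRP1, SEMA4B with SEMA4C, and SEMA4C with SEMA3A. In siTLN1 the level of SEMA7A was 53.1 and 51.4 CPM per kb, above PLXNA1 at 43.5 and 37.9. On this scale SEMA7A was thus 6th of the 28 tested family genes in SCR and 1st in siTLN1. The length counts every annotated exon base of a gene, 11522 for NRP1 and 3800 for SEMA7A. The transcript with the longest coding sequence has 2769 coding and 2584 3′ UTR bases in NRP1, and 1998 and 1335 in SEMA7A. Before scaling by length, NRP1 averaged 396 CPM in siTLN1 and SEMA7A 199 CPM. The 1st place of SEMA7A in siTLN1 thus rests on the lengths used. The order could therefore differ with transcript lengths, which were not used.

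**Figure D3:**
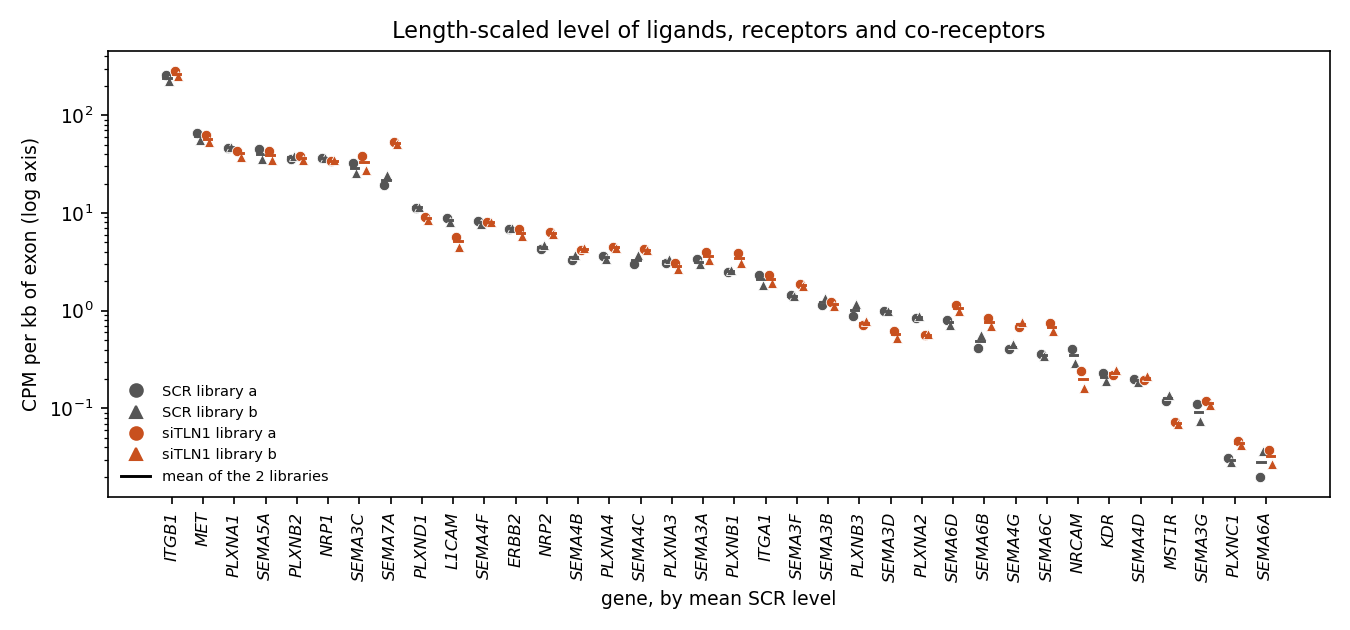
CPM per kb of exon (log axis) of the tested semaphorins, plexins, neuropilins and co-receptors, ordered by mean SCR level; circles and triangles are libraries a and b and bars are group means. ITGB1 is highest and PLXNC1 and SEMA6A are lowest, and SEMA7A moves from 21.8 to 52.2 CPM per kb.

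The remaining semaphorins came from a list of all 20 human family members. SEMA3E, SEMA4A and SEMA5B had at most 5 counts in any library and were not tested. Of the 16 others besides SEMA7A, 2 rose, 1 fell and 13 did not pass the test, against 2.3% of all tested genes rising and 3.77% falling. Leaving SEMA7A aside, the median log2 fold change of these 16 was 0.23, beside 0.0033 over all tested genes, and 13 of the 16 values were above 0. The count of 3 became 1 without siTLN1 library a, 5 without SCR library b and 5 with total counts only.

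SEMA6C, a transmembrane ligand of class A plexins, rose from 2.11 and 2.01 CPM to 4.31 and 3.64 CPM, a log2 fold change of 0.94 (adjusted p = 0.00723, edgeR). SEMA4G rose from 2.11 and 2.41 CPM to 3.54 and 4.06 CPM, a log2 fold change of 0.75 (adjusted p = 0.0255). Both are scarce, with 67 to 191 counts per library, and 27.4% of the exon bases of SEMA4G lie in MRPL43 or another gene on the opposite strand, so its count is uncertain. The call of SEMA6C was lost without siTLN1 library a (adjusted p = 0.0856). That of SEMA4G was lost without SCR library a, siTLN1 library a or siTLN1 library b (0.0880, 0.0665 and 0.150) and with DESeq2 (0.0786).

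SEMA3D, a secreted ligand that acts on endothelial and neural crest cells, went the other way. It fell from 8.08 and 7.95 CPM to 5.03 and 4.28 CPM, a log2 fold change of −0.79 (adjusted p = 0.00390, edgeR). SEMA3D lies on chromosome 7, as do SEMA3A and SEMA3C, which did not pass the test. Its call held without each library in turn (adjusted p up to 0.0436).

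Among the semaphorins that did not pass, SEMA6D (log2 fold change 0.48, adjusted p = 0.0575, edgeR) and SEMA6B (0.65, adjusted p = 0.0771) came nearest, and with total counts only both passed (0.0343 and 0.0421). SEMA6D also passed without SCR library a (0.0401) and SEMA6B without SCR library b (0.0267). The log2 fold changes were 0.36 for SEMA3F, 0.30 for SEMA3G, 0.14 for SEMA6A, 0.080 for SEMA4D, 0.0063 for SEMA4F, −0.059 for SEMA5A and −0.083 for SEMA3B. SEMA5A was the semaphorin with the highest length-scaled level in SCR, at 44.8 and 36.0 CPM per kb. As in SEMA3C, both of its a libraries (551.5 CPM in SCR, 531 CPM in siTLN1) were above both b libraries (443 and 424 CPM). SEMA6A and SEMA3G stayed below 1 CPM in every library.

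**Figure D4:**
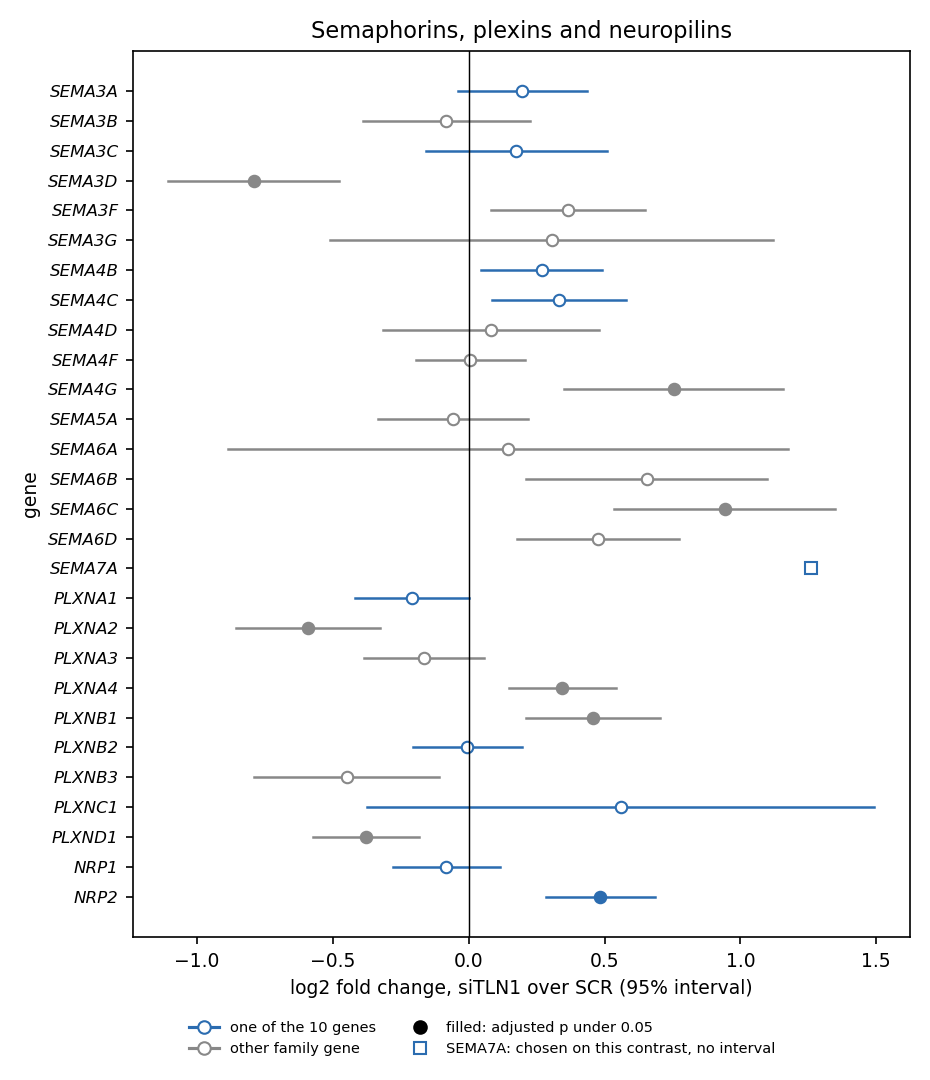
Log2 fold change of siTLN1 over SCR with its 95% interval for the 28 tested semaphorins, plexins and neuropilins; blue marks the 10 genes, grey the rest, filled circles have an adjusted p under 0.05, and SEMA7A is a square with no interval. NRP2, SEMA4G, SEMA6C, PLXNA4 and PLXNB1 lie to the right and SEMA3D, PLXNA2 and PLXND1 to the left, and the interval of PLXNC1 is among the widest.

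Plexins moved in both directions. All 9 plexins and both neuropilins were tested, and of these 11 genes 3 rose, 2 fell and 6 did not pass (45.5% passed, against 6.07% of all tested genes, 2.3% higher and 3.77% lower). The median log2 fold change of the 11 was −0.083. PLXNB1, the receptor for SEMA4D, rose from 24.3 and 25.4 CPM to 38.05 and 30.3 CPM (log2 fold change 0.46, adjusted p = 0.0280, edgeR). PLXNA4, a partner of NRP1 in axon guidance, rose from 58.9 and 56.0 CPM to 73.8 and 72.1 CPM (0.34, adjusted p = 0.0373). SEMA4D itself was at 2.67 to 3.04 CPM in the 4 libraries.

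PLXND1, which guides vessels as the receptor for SEMA3E, fell from 111 and 113 CPM to 88.9 and 83.0 CPM (log2 fold change −0.38, adjusted p = 0.0214, edgeR). PLXNA2, a receptor for class 6 and, with a neuropilin, class 3 semaphorins, fell from 11.5 and 12.2 CPM to 7.75 and 8.001 CPM (−0.59, adjusted p = 0.00935). PLXNA3 (−0.16, adjusted p = 0.422) and PLXNB3 (−0.45, adjusted p = 0.119) did not pass, and 20.4% of the exon bases of PLXNB3 also belong to SRPK3 on the same strand. The count of 5 was 2 without a filter on low counts, where PLXNA4, PLXNB1 and PLXND1 were lost. It was 3 when either SCR library b or siTLN1 library b was left out, which removed PLXNA4 and PLXND1. Leaving out siTLN1 library a removed all 5 and lowered the count over all genes from 980 to 324. Leaving out SCR library a added PLXNB3 (−0.63, adjusted p = 0.0167), which was at −0.23 without SCR library b (adjusted p = 0.650).

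Of 8 tested co-receptors of 10 listed, L1CAM alone passed (12.5%, against 6.07% of all tested genes). L1CAM is a cell adhesion molecule of the immunoglobulin type that joins NRP1 in the SEMA3A receptor. It fell from 64.9 and 59.0 CPM to 41.7 and 32.6 CPM, a log2 fold change of −0.74 (adjusted p = 0.00160, edgeR), and its call held without each library in turn (adjusted p up to 0.0109). The count of 1 was 2 with total counts only and without SCR library b. Opposite-strand genes share 4.94% of its exon bases and a same-strand gene 6.04%. MET, the receptor tyrosine kinase that associates with class B plexins, had a log2 fold change of −0.088 (adjusted p = 0.736), and ERBB2, which binds plexin B1, had −0.15 (adjusted p = 0.453).

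Among 29 tested effectors of 33 listed, 1 rose, 2 fell and 26 did not pass (10.3% passed, against 6.07% of all tested genes), and the median log2 fold change was −0.044. DPYSL2 encodes CRMP2, a microtubule-binding mediator of SEMA3A signals in axons. It fell from 388 and 387 CPM to 274 and 289 CPM (log2 fold change −0.46, adjusted p = 0.00642, edgeR). RRAS encodes R-Ras, the small GTPase that plexins turn off. It fell from 54.6 and 61.2 CPM to 38.3 and 46.4 CPM (−0.45, adjusted p = 0.0230). PTK2, the focal adhesion kinase used by SEMA7A and its integrin receptors, rose from 171 and 163 CPM to 207 and 211 CPM (0.32, adjusted p = 0.0433). The abundant effectors CFL1 (−0.15), MICAL2 (0.039) and RHOA (−0.15), given as log2 fold changes, did not pass. Leaving out siTLN1 library a removed all 3, SCR library b removed RRAS (adjusted p = 0.0627) and any 1 of the 4 libraries removed PTK2 (adjusted p 0.0836 to 0.229). Of these 3 only DPYSL2 passed without a filter on low counts. With total counts only, 4 effectors passed.

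Genes near SEMA7A did not pass the edgeR test. Within 250 kb of its ends the count table lists 25 other genes, of which 8 were tested. Of these 8, 0 passed, against 6.07% of all tested genes, and 8 genes are too few to tell these apart. At an unadjusted p under 0.05 in edgeR there were 2, and the share of all tested genes at that level was not counted. DESeq2, limma-voom and limma-trend without the block each called 0 of the 8. Their log2 fold changes ran from −0.51 for ISLR to 0.45 for ARID3B, with a median of 0.068. The nearest was UBL7, 12019 bases away, at 0.13 (adjusted p = 0.511, edgeR).

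The genes whose log2 CPM over the 4 libraries, centred on their own mean, lay nearest to SEMA7A by Euclidean distance were HHIP (0.25), VSNL1 (0.30), KRT80 (0.33), LBH (0.33) and FLVCR2 (0.40). Only tested genes with a mean level of at least 5 CPM entered. HHIP, which binds and restrains hedgehog ligands, was at 91.2 and 101.9 CPM in SCR and 205 and 193 CPM in siTLN1. With 4 libraries such likeness is a description only.

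The word GACAACA was chosen from earlier results of these data, and the family was searched for it on the sense strand of GENCODE 29 transcripts. Of 12864 tested genes with a coding transcript, 7.32% hold the word in the 3′ UTR of the transcript with the longest coding sequence, and of the 28 family genes 1 does. That gene is PLXNA4, which rose. Its 29 bases around the word lie at chr7:132123635-132123663 (GRCh38, minus strand), printed 5′ to 3′ with the word in capitals.
PLXNA4: gcatatctttaGACAACAgtgttaaaatg
No transcript of SEMA7A (3 searched), SEMA3D, SEMA6C or SEMA4G holds the word. Among the family genes that fell, PLXNA2 has 1 copy in coding sequence and PLXND1 has 3, the latter in 1 of its 4 transcripts. In coding sequence, whatever its length, 12 of the 28 family genes and 15.9% of all searched genes hold the word. These figures were not matched for length, and a longer sequence has more places for a match. The family genes with the word in coding sequence other than PLXNA2 and PLXND1 did not pass the test. NRP2 holds it in 1 of 7 transcripts. In at least 1 transcript, 15 of the 28 family genes and 25.5% of all searched genes hold it. A match says nothing about whether the RNA is bound there.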

How the data were processed

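The authors deposited raw counts for each gene. Per the file headers they came from featureCounts 2.0.0, run on read pairs without a strand setting against GENCODE 33 (GRCh38). Reads of overlapping genes on opposite strands therefore cannot be told apart. STAR 2.7.9a and edgeR 3.34.1 stand in the submitters' processing notes. The deposited exon lengths, in a unit other than counts, gave CPM per kb. The authors also deposited log2 CPM values for 16137 genes; 100% of them, sorted within groups, equalled edgeR's values to 6 decimals.

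Count columns carry a group name and a number absent from the labels, and each was assigned to a group without a replicate. Columns with no sample or group numbered 0, and 0 entries named no gene. Symbols came from the gene name table by Ensembl ID without its version and were found for 16085 of 16137 tested genes. The filter was filterByExpr (minimum count 10, minimum total count 15). Libraries were scaled by TMM and compared with edgeR 4.0.16 (R 4.3.3; estimateDisp, robust glmQLFit, glmQLFTest), with Benjamini-Hochberg adjustment over all tested genes and a threshold of 0.05. The fit was tested on simulated data with changes of a single size and the same spread set for all genes. That test does not cover smaller changes or the scarcest genes. Replicates differed by more than counting noise (chi-square per degree of freedom 13.3 and 18.3), so the number of libraries limits precision more than depth does for abundant genes. The series calls the replicates biological and does not say how the cultures were separated.

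The members and lists were chosen with earlier results of these data known. Lists (20 semaphorins, 11 plexins and neuropilins, 10 co-receptors and 33 effectors) came from general knowledge. Named genes are TLN1, the 10 genes, every other tested family gene, co-receptors and effectors past the threshold or among the 3 most abundant of their list, and the 5 nearest profiles. ISLR, ARID3B and UBL7 were named after their values were seen. Alternatives were total counts only, RLE scaling, a floor of 10 mean counts, no filter, the legacy quasi-likelihood method, DESeq2 1.42.0 (no adjusted p for 3755 genes), limma-voom and limma-trend (limma 3.58.1) on the deposited log2 CPM with and without a replicate block, and each library left out in turn. Sequences came from GENCODE 29, whose release differs from that of the counts.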

Additional observations from a re-analysis of the deposited data

How the results depend on the processing

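Under the alternatives run, SEMA7A had log2 fold changes from 1.26 to 1.27 with all 4 libraries and from 1.11 to 1.43 with 1 library left out. SEMA7A was picked on its rise in these same libraries, whose groups did not overlap. Its direction was thus set beforehand, and these ranges describe its size only. The same choice can make that size too large, and refitting the same libraries does not correct for this. With all 4 libraries and no replicate block, 663 to 1253 genes changed and 1 of the 9 other members passed under each setting. Without 1 library the counts ran from 324 to 1100 genes and from 0 to 2 members, and the cause was not tested. With total counts only, 5 semaphorins besides SEMA7A and 2 co-receptors passed, and without a filter 2 plexins or neuropilins and 1 effector passed. The median of the 17 semaphorins, SEMA7A included, ran from 0.27 to 0.28 with all 4 libraries and no replicate block. With 1 library left out it ran from 0.25 to 0.38. In those fits 1 group holds a single library that is assumed to vary like the rest. With no filter PLXNB2 reversed (0.0062).

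With 1 library left out the values that changed sign were all small ones that did not pass: SEMA3C (−0.066 to 0.39), PLXNB2 (−0.071 to 0.063, with 0.039 between), SEMA3B (−0.20 to 0.048), SEMA4F (−0.043 and −0.0041 to 0.058), SEMA5A (−0.23 to 0.097 and 0.11), SEMA6A (−0.20 and −0.077 to 0.66), MET (−0.21 to 0.030 and 0.042) and MICAL2 (−0.053 to 0.14). Counts of the 4 lists and values of genes outside the set were put through these settings after the data had been seen.

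The replicate numbers of the labels are not stated to mark a shared preparation, so they were not used as pairs. The differences between replicates 1 and 2 correlated across genes at 0.19 between the groups. Whether replicates of the same number share a preparation was not tested. With the replicate block, limma-trend on the deposited log2 CPM gave 3645 changed genes and 6 of the 9 members (NRP2, SEMA4C, SEMA4B, PLXNA1, SEMA3C and SEMA3A, adjusted p up to 0.0430). It also gave 10 semaphorins besides SEMA7A, 7 plexins and neuropilins, 2 co-receptors and 8 effectors. Depth limits PLXNC1, SEMA6A and SEMA3G, whose intervals are the widest of the family.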
